A study of Mus musculus with 24 samples.

Results

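Commitment of a neural progenitor to become a neuron is controlled by a small circuit of proneural and Notch pathway genes, and 9 of its genes were followed here across sorted motor neuron cultures: the proneural factors Neurog1 and Neurog2, the neuronal differentiation factors Neurod1 and Neurod4, the ligands Dll1 and Dll3, the receptor Notch1 and the target genes Hes1 and Hes5. They were taken as a fixed list from a table of 22889 gene entries, by name and not by a cut on measured values, with earlier results of these data known, and all 9 passed the filter on low values in every comparison. Proneural factors are basic helix-loop-helix (bHLH) proteins that bind DNA sites known as E-boxes, switch on neuronal genes and raise Delta-like ligands on the cell surface. Ligand on one cell activates Notch on its neighbor, whose intracellular part is cut free, binds RBPJ on DNA and turns on Hes genes, and HES proteins in turn repress proneural genes and keep that cell a progenitor. In the embryo the ventral neural tube that forms motor neurons passes through this step as progenitors leave the cell cycle.

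The samples were mouse embryonic stem cell (mESC)-derived cultures grown as embryoid bodies. Oculomotor cultures came from an Islet1-GFP line carrying NesEPhox2a, a Phox2a transgene whose nestin enhancer limits it to neural progenitors, and received SAG, which stands in for Sonic hedgehog, at 250 nM together with FGF8 at 100 ng/ml over 5 days. Spinal cultures came from an Hb9-GFP line without the transgene and received SAG at 500 nM together with retinoic acid at 100 nM, also over 5 days. GFP-positive and GFP-negative cells of each culture were collected by FACS on the day the embryoid bodies were dissociated, giving 4 groups of 6 samples: oculomotor GFP-positive, oculomotor GFP-negative, spinal GFP-positive and spinal GFP-negative. The line, its reporter gene and the patterning factors changed together between cultures and cannot be told apart, and the Islet1 and Hb9 reporters need not switch on at the same stage of differentiation. A GFP-negative sample is whatever the reporter did not mark, and a level in a bulk sample cannot tell fewer expressing cells from less RNA per cell.

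Estimated depth ran from 752529 to 7675428 mapped reads per sample, with a median of 2833426 in replicates 1 to 4 and 6979753 in replicates 5 and 6. Nothing in the labels says that replicates were separate differentiations, so p-values measure the spread between these samples. The gene behind each reporter separated most samples: Isl1 was 141 to 369 RPKM in oculomotor GFP-positive samples and 0.696 to 1.87 RPKM in the GFP-negative ones, and Mnx1 (Hb9) was 43.1 to 149 RPKM in spinal GFP-positive samples. Phox2a, the oculomotor factor supplied by the transgene, was 5.83 to 53.4 RPKM in oculomotor GFP-positive and 3.09 to 6.43 RPKM in oculomotor GFP-negative samples, against 8.59 RPKM or less in spinal samples, and it passed the test between the GFP-positive fractions at a log2 difference of 3.46 (limma adjusted p = 0.0317). The library labelled spinal GFP-negative 4 held 69.4 RPKM of Mnx1, more than its GFP-positive partner with 43.1 RPKM, and both had summed stem cell markers of 5250 RPKM or more, as did spinal GFP-positive sample 5, the highest of all samples at 12400 RPKM. Among those markers, Pou5f1 and Nanog were 31.5 and 156 RPKM in GFP-positive sample 4 and 50.3 and 185 RPKM in GFP-negative sample 4. In spinal GFP-positive samples 5 and 6 they were 2.15 and 40.5 RPKM or less, so the 12400 RPKM came mostly from other markers. By Mnx1 the pair numbered 4 goes against its labels, and the spinal sort and the interaction were also fitted without it.

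Of the nearby regulatory sequences, those of Hes5 and Dll1 are shown because they carry the motifs through which the circuit is known to act: the RBPJ core GTGGGAA, bound downstream of activated Notch, and the E-box CANNTG, bound by bHLH factors. RefSeq windows (GRCm38.p6) were found for 8 of the 9 genes, 10 windows in all, and the 250 bases before each start were searched on both strands. Hes1 was the gene without a window, so its promoter was not searched. The Hes5 window, chr4:154960673-154960922 on the plus strand, lies directly before the annotated gene, and capitals mark the RBPJ core (TTCCCAC where it lies on the other strand).
Hes5: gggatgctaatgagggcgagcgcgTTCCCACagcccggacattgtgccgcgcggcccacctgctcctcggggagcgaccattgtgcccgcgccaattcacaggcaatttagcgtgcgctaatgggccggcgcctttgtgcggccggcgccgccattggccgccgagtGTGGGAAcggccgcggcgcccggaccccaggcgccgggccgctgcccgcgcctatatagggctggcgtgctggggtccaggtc
The Dll1 window, chr17:15376933-15377182 on the minus strand, is the one farther upstream of the 2 windows of this gene, and capitals mark E-boxes.
Dll1: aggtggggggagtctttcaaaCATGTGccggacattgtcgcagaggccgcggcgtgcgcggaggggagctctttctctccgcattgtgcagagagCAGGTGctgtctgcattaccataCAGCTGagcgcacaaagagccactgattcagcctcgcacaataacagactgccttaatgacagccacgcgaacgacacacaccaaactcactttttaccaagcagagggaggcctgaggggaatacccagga
The Hes5 window held the RBPJ core 2 times, with first bases 226 and 83 bases before the start, and the other 9 windows, which do not include Hes1, held none. Among all 32851 RefSeq mouse windows of this length, 5.42% held the core at least once and 0.161% held it 2 times or more. The Dll1 window held 3 E-boxes, a motif that 66.2% of all windows held at least once and 31.8% held 2 times or more. The other Dll1 window held 1 E-box, the Dll3 window 2, and those of Neurod1 and Hes5 1 each. Windows of Notch1, Neurog1, Neurog2 and Neurod4 held none. These are matches of letters and were not tested as binding sites.

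In the oculomotor sort, Neurod1, Neurod4 and Dll3 were higher in GFP-positive than GFP-negative samples and Hes1 was lower, without overlap of ranges. Neurog1, Neurog2, Dll1, Notch1 and Hes5 did not pass the test. Of these, Neurog1 was higher in the GFP-positive member of 6 of 6 same-numbered pairs. Pairs 4 and 6, however, each held only about 3 reads of it against 2. In this comparison 4 of the 9 genes were called, 3 higher and 1 lower. Of the 22179 genes tested, 6.15% were called (3.81% higher, 2.34% lower) and 6.52% had groups that did not overlap. The median difference of the 9 genes was 0.47 in log2(RPKM + 1), beside 0 over all genes tested.

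**Figure D1:**
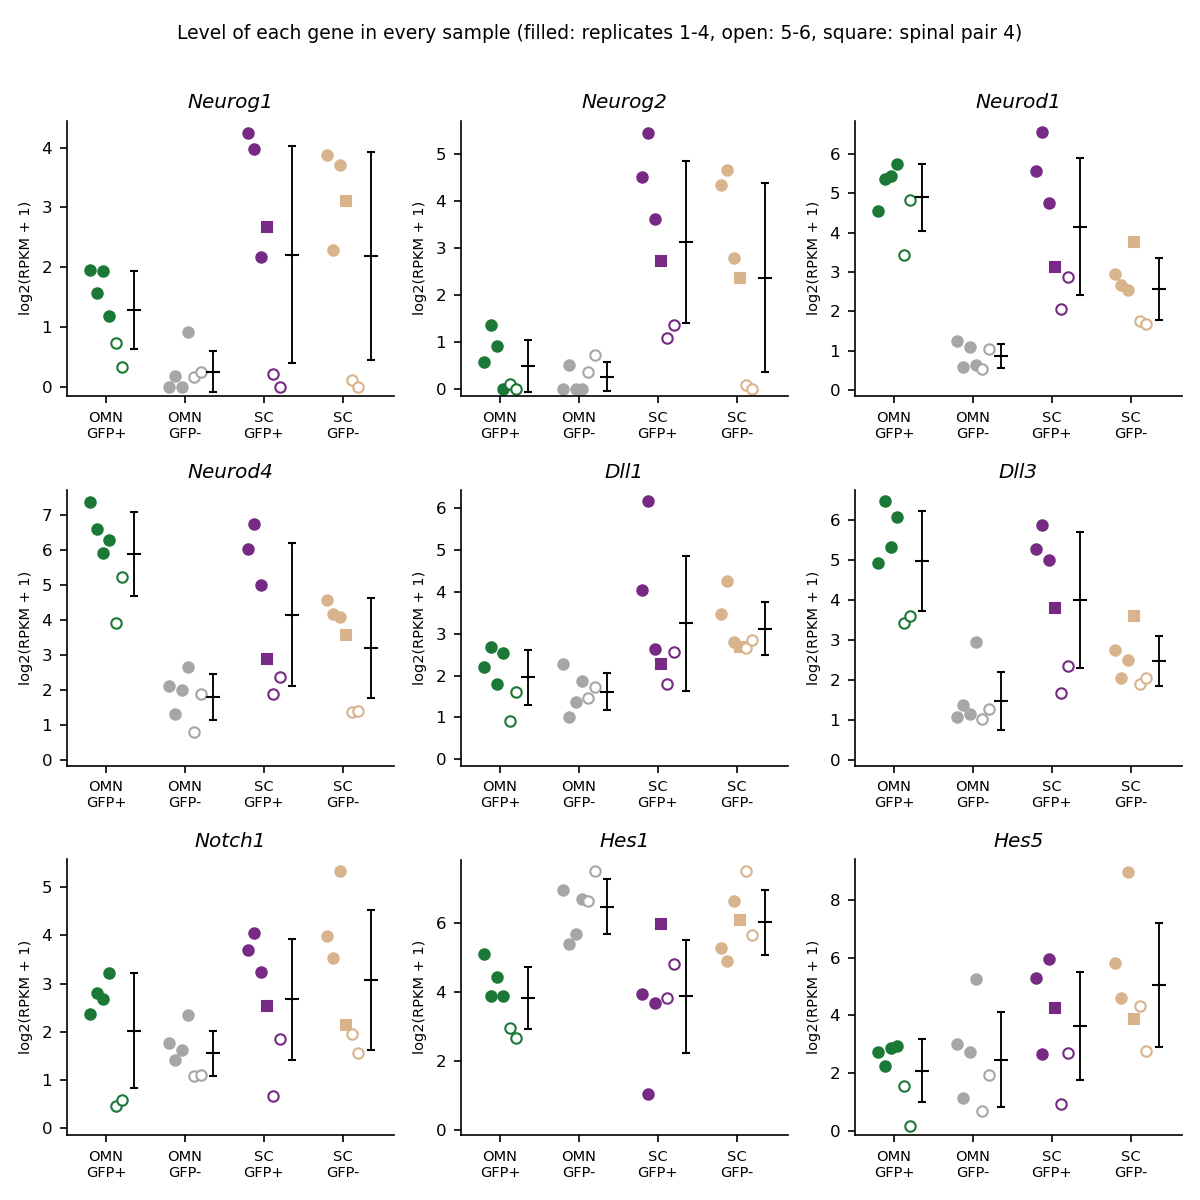
Level of each of the 9 genes in every sample, as log2(RPKM + 1), in the 4 sorted groups (OMN, oculomotor; SC, spinal). Circles are samples in replicate order (filled for replicates 1 to 4, open for 5 and 6), squares are spinal pair 4, and dashes with bars are the mean ± SD of 6 samples. Neurod1, Neurod4, Dll3 and Hes1 separate the oculomotor GFP-positive from the GFP-negative samples, and Neurog2 lies between 1.12 and 42.7 RPKM in spinal GFP-positive samples but at 1.585 RPKM or less in both oculomotor groups.

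Neurog1 and Neurog2 (neurogenins), which start the cascade, were the lowest genes of the set in oculomotor samples. Neurog2, at 127633135 to 127635631 on the plus strand of chromosome 3 (GENCODE M21, GRCm38), lay between 0 and 1.585 RPKM (median 0.277) in oculomotor GFP-positive samples and between 0 and 0.651 RPKM (median 0.140) in the GFP-negative ones. In spinal GFP-positive samples it lay between 1.12 and 42.7 RPKM (median 8.52), and in spinal GFP-negative samples between 0 and 24.4 RPKM (median 5.04). Each spinal GFP-positive sample held more Neurog2 than the oculomotor GFP-positive sample of the same number, although the ranges of the groups overlapped. The low end of these values rests on few reads: the oculomotor GFP-positive samples held 0 to 13 reads of Neurog2 each and the spinal GFP-positive samples 18 to 221.

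The mean of Neurog2 was 14.1 ± 16.0 RPKM (SD, n = 6) in spinal and 0.503 ± 0.633 RPKM in oculomotor GFP-positive samples, a 28.0-fold difference of means that was 16.7-fold without spinal GFP-positive sample 2 and 49.2-fold without oculomotor GFP-positive sample 2. In log2(RPKM + 1) the oculomotor samples were 2.64 lower (SE 0.69), and limma's adjusted p of 0.136 did not pass the threshold. None of the 9 genes was called between the GFP-positive fractions, where 0.603% of 19240 genes tested were called, and Neurog2 was the one gene of the set with an unadjusted p under 0.05. Of all genes tested, 1951 had an unadjusted p under 0.05. With an offset of 0.1 RPKM in place of 1 RPKM the difference was -4.37 and Neurog2 passed, with a limma adjusted p of 0.0452.

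Neurog1, at 56250478 to 56252163 on the minus strand of chromosome 13, had a single exon in the annotation and followed the same split in replicates 1 to 4. It lay between 3.48 and 17.85 RPKM in replicates 1 to 4 of the spinal GFP-positive group and between 1.28 and 2.86 RPKM in those of the oculomotor GFP-positive group. In replicates 5 and 6 of both groups it was at 0.661 RPKM or less, and the spinal samples numbered 6 of both fractions were listed at 0. Spinal GFP-positive and GFP-negative means differed by less than their spread, at 6.95 ± 7.60 and 6.23 ± 5.89 RPKM (SD, n = 6). Between fractions of the same number, Neurog1 had a log2 difference of 1.03 in the oculomotor sort and Neurog2, higher in the GFP-positive member of 6 of 6 spinal pairs, one of 0.76 in the spinal sort, and with the pairs kept neither passed (limma adjusted p = 0.0817 and 0.139).

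Between the cultures' GFP-negative fractions the neurogenins had log2 differences of -1.93 (SE 0.72) for Neurog1 and -2.11 (SE 0.75) for Neurog2, oculomotor minus spinal, with limma adjusted p of 0.268 and 0.236. Within replicates 1 to 4 alone both were called, at -2.97 (limma adjusted p = 0.0155) and -3.42 (limma adjusted p = 0.0241), among 0.186% of genes called in that fit. Within replicates 5 and 6 alone the differences were 0.15 and 0.49 in the opposite direction, with limma adjusted p of 0.699 and 0.262. Both neurogenins were at 1 read or less in spinal GFP-negative samples 5 and 6, and the difference between the replicate sets was not tested.

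Neurod1 and Neurod4, which act downstream of the neurogenins and maintain neuronal differentiation, had the largest differences of the 9 genes between the oculomotor fractions. Neurod1, at 79452521 to 79456751 on the minus strand of chromosome 2, was 9.75 to 53.1 RPKM (median 33.9) in GFP-positive and 0.456 to 1.39 RPKM (median 0.803) in GFP-negative samples. Every GFP-positive sample was above every GFP-negative sample, and the ratio within same-numbered samples ran from 16.2 to 97.8. The log2 difference was 4.04 (SE 0.58, limma adjusted p = 8.37e-05), and the means differed 38.3-fold.

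Neurod4, at 130268152 to 130280240 on the minus strand of chromosome 10, was 14.0 to 165 RPKM (median 67.7) in oculomotor GFP-positive and 0.744 to 5.32 RPKM (median 2.86) in GFP-negative samples. Its within-number ratios ran from 13.5 to 64.5 and its log2 difference was 4.08 (SE 0.77, limma adjusted p = 0.00157). Both genes kept their call without any one of the 12 oculomotor samples.

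In the spinal sort the same genes overlapped between fractions. Neurod1 was 3.14 to 93.0 RPKM (median 16.9) in spinal GFP-positive and 2.22 to 12.7 RPKM (median 5.14) in spinal GFP-negative samples. Neurod4 was 2.73 to 105 RPKM (median 18.6) and 1.61 to 22.8 RPKM (median 13.4), respectively. Both were higher in the GFP-positive member of 5 of 6 same-numbered pairs, and pair 4 was the exception for each. The log2 differences were 1.59 (SE 0.58) for Neurod1 and 0.95 (SE 0.77) for Neurod4, with limma adjusted p of 0.260 and 0.751, and without pair 4 they were 2.04 and 1.28 and neither gene passed (limma adjusted p = 0.0871 and 0.584). With pair 4 left out and the other fractions kept as pairs, Neurod1 passed (limma adjusted p = 0.0199) and Neurod4 did not (limma adjusted p = 0.0605), in a fit that called 5.67% of all genes.

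None of the 9 genes was called between the spinal fractions, where 1.23% of genes tested were called and 0.469% had groups that did not overlap. Unadjusted p was under 0.05 for 3 of the 9, namely Neurod1, Dll3 and Hes1, and for 2315 of all 22179 genes tested. The median difference of the 9 genes was 0.12, beside 0 over all genes.

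The difference between the 2 sorts was itself tested as the interaction of culture and fraction, in which none of the 9 genes was called (0.32% of all genes were) and 3 had an unadjusted p under 0.05. Of all 22179 genes tested, 1582 did. The interaction was 3.13 (SE 1.09) for Neurod4, 2.45 (SE 0.82) for Neurod1 and 1.98 (SE 0.90) for Dll3, with limma adjusted p of 0.385, 0.336 and 0.649. Without pair 4 these were 2.80, 2.00 and 1.72, with limma adjusted p of 0.432, 0.442 and 0.670, and 2 of the 9 had an unadjusted p under 0.05, as had 1924 of 21837 genes tested. With same-numbered fractions of each culture kept as pairs, Neurod4 passed (limma adjusted p = 0.00981), in a fit that called 2.04% of all genes, and so it did with pair 4 also left out (limma adjusted p = 0.0109), where 2.29% were called.

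**Figure D2:**
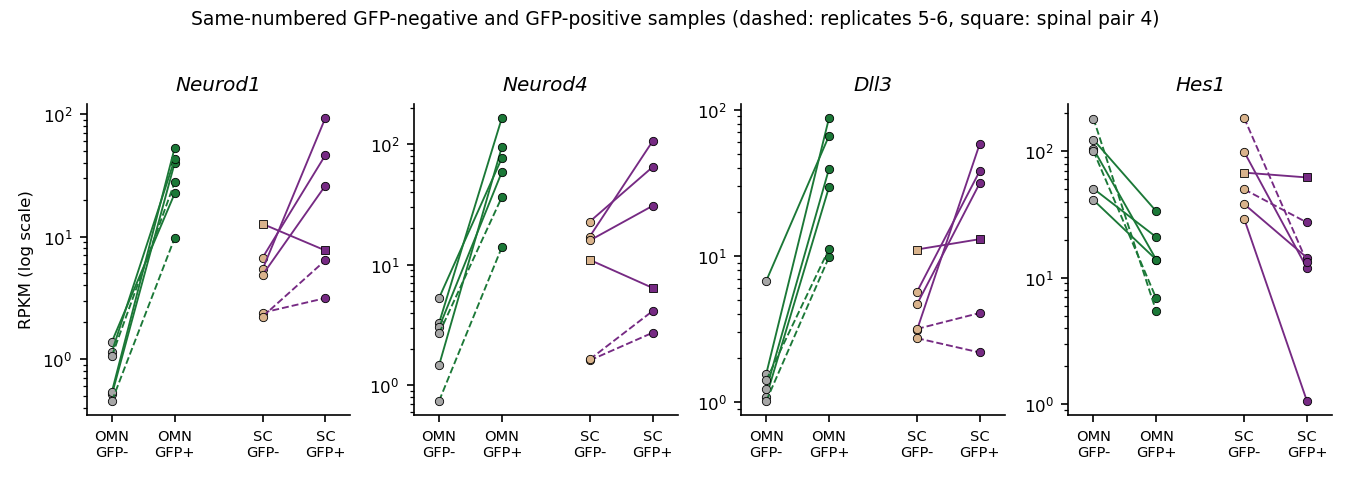
RPKM on a log axis in the GFP-negative and GFP-positive samples of the same number, joined by lines, for Neurod1, Neurod4, Dll3 and Hes1 (dashed lines, replicates 5 and 6; squares, spinal pair 4). All 6 oculomotor pairs rise in Neurod1, Neurod4 and Dll3 and all 6 fall in Hes1. Of the 6 spinal pairs, 5 rise in each of Neurod1, Neurod4 and Dll3 and 6 fall in Hes1, which in pair 4 goes from 67.8 to 62.1 RPKM.

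Of the ligands, Dll3 passed the test in the oculomotor sort and Dll1 did not. Dll1 is the ligand that activates Notch on neighboring cells, whereas Dll3 is known as a divergent member that sits mostly inside the cell and dampens Notch signaling in the cell that makes it. Dll3, at 28293553 to 28302238 on the minus strand of chromosome 7, was 9.83 to 88.0 RPKM (median 34.6) in oculomotor GFP-positive and 1.02 to 6.76 RPKM (median 1.32) in GFP-negative samples, with a log2 difference of 3.51 (SE 0.64, limma adjusted p = 0.00107). In the spinal sort it was 2.18 to 58.4 RPKM (median 22.2) in GFP-positive and 2.74 to 11.1 RPKM (median 3.91) in GFP-negative samples, and the difference of 1.53 (SE 0.64) had a limma adjusted p of 0.366, beside 1.80 and 0.240 without pair 4. The highest spinal GFP-negative value of Dll3 was that of sample 4.

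Dll1, at 15367354 to 15376872 on the minus strand of chromosome 17, overlapped in both sorts. It was 0.8905 to 5.47 RPKM (median 3.06) in oculomotor GFP-positive and 1.00 to 3.84 RPKM (median 2.05) in oculomotor GFP-negative samples. In spinal GFP-positive samples it was 2.46 to 71.3 RPKM (median 5.04) and in spinal GFP-negative samples 5.28 to 18.3 RPKM (median 6.12). The highest value, 71.3 RPKM, belonged to spinal GFP-positive sample 2, and the next highest in that group was 15.6 RPKM. In that sample 3 predicted genes (Gm10800, Gm10801 and Gm21738) held 17.79% of the RPKM. They held 68.81% in spinal GFP-negative sample 2, which had the highest Dll1 and Neurog2 of its group. Spinal GFP-positive sample 2 was also the highest of its group in Neurog2, Neurod1 and Neurod4, at 42.7, 93.0 and 105 RPKM. It was highest in Dll3 and Notch1 too, at 58.4 and 15.5 RPKM, and lowest in Hes1, at 1.055 RPKM. The part of the predicted genes in these levels was not tested. The log2 differences between fractions were 0.35 (SE 0.53) in oculomotor and 0.12 (SE 0.53) in spinal cultures, and neither passed.

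Between the GFP-negative fractions, however, Dll1 did not overlap: every spinal sample was above every oculomotor sample. Neurod1 was the other member with this pattern, at 2.22 to 12.7 RPKM in spinal and 0.456 to 1.39 RPKM in oculomotor GFP-negative samples. Hence 2 of the 9 genes had groups that did not overlap, both lower in the oculomotor fraction, where 1.27% of genes tested had such groups (0.87% lower). By limma none of the 9 passed in this comparison, which called 0.96% of genes, while 6 of the 9 had an unadjusted p under 0.05 (Neurog1, Neurog2, Neurod1, Dll1, Notch1 and Hes5). Of all 22179 genes tested, 2500 had an unadjusted p under 0.05.

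The differences were -1.51 (SE 0.53, limma adjusted p = 0.233) for Dll1 and -1.71 (SE 0.58, limma adjusted p = 0.206) for Neurod1. The median of the 9 genes was -1.53, beside -0.04 over all genes tested, and Hes1 alone had a difference above 0. The GFP-negative fractions also differed in markers of other cells. The 8 stem cell markers (among them Pou5f1, Nanog and Dppa5a) summed to 693 to 9900 RPKM in oculomotor samples and to 74.7 to 395 RPKM in the spinal samples other than sample 4, which held 5870 RPKM. In the oculomotor samples Pou5f1 was 1.29 to 49.1 RPKM, with 1.94 RPKM or less in replicates 5 and 6, and Nanog was 16.5 to 85.4 RPKM. The oculomotor sums thus rest mostly on other genes of the list. The 12 neural progenitor markers (among them Sox1, Pax6 and Nes) summed to 300 to 477 RPKM in oculomotor and 223 to 2730 RPKM in spinal samples, and no marker of either list was at 0 throughout a group. The part of these cells in the differences was not tested.

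**Figure D3:**
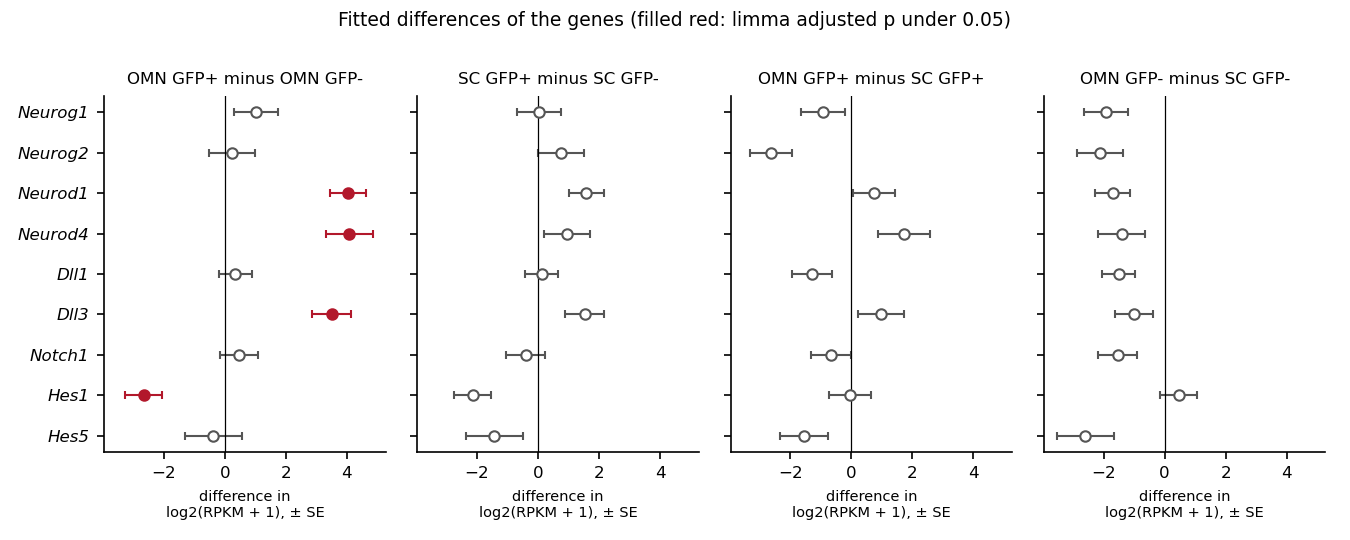
Fitted differences of the 9 genes in log2(RPKM + 1), with bars of 1 SE, between fractions of each culture and between cultures in each fraction (OMN, oculomotor; SC, spinal). Red filled points passed the threshold: Neurod1, Neurod4, Dll3 and Hes1 in the oculomotor sort, at 4.04, 4.08, 3.51 and -2.66, and none in the other panels.

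Notch1, a Notch receptor of neural progenitors at 26457903 to 26516663 on the minus strand of chromosome 2, was not called in any comparison. It was 0.374 to 8.35 RPKM (median 4.77) in oculomotor GFP-positive, 1.11 to 4.06 RPKM (median 1.87) in oculomotor GFP-negative, 0.593 to 15.5 RPKM (median 6.62) in spinal GFP-positive and 1.94 to 39.4 RPKM (median 6.96) in spinal GFP-negative samples. The ranges of all 4 groups overlapped. Notch1 values were split by replicate set: in 4 of 4 groups both of replicates 5 and 6 lay below all of replicates 1 to 4, for example at 0.374 and 0.488 RPKM against 4.13 to 8.35 RPKM in oculomotor GFP-positive samples. How many of all genes were split in this way was not counted.

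Hes1 and Hes5 encode the repressors that Notch induces, and they differed from each other in these samples. Hes1, at 30064384 to 30067796 on the plus strand of chromosome 16, was 5.40 to 33.5 RPKM (median 13.9) in oculomotor GFP-positive and 41.1 to 182 RPKM (median 102) in oculomotor GFP-negative samples. The fractions did not overlap, the GFP-negative samples held 2.42 to 33.7 times as much as the GFP-positive samples of the same number, and the log2 difference was -2.66 (SE 0.61, limma adjusted p = 0.00927). Without any one of the 12 oculomotor samples the difference stayed between -2.91 and -2.43 and passed. In replicates 1 to 4 alone it was -1.85 and did not pass (limma adjusted p = 0.260), and in replicates 5 and 6 alone it was -4.26 and passed (limma adjusted p = 0.0219).

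In the spinal sort Hes1 was 1.055 to 62.1 RPKM (median 13.8) in GFP-positive and 29.3 to 184 RPKM (median 58.9) in GFP-negative samples, lower in the GFP-positive member of 6 of 6 pairs. The difference of -2.14 (SE 0.61) had a limma adjusted p of 0.0957. Spinal GFP-positive sample 4, with 62.1 RPKM, was the one sample above the lowest spinal GFP-negative sample. Without pair 4 the fractions did not overlap and the difference, -2.55, passed (limma adjusted p = 0.0253), where 2.9% of genes were called. With the pairs kept as well, Hes1 passed in that set (limma adjusted p = 0.0173). Without the GFP-positive sample 4 alone it was -2.56 (limma adjusted p = 0.0149).

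Hes5, a target typical of neural progenitors at 154960923 to 154962371 on the plus strand of chromosome 4, varied widely within groups. It was 0.106 to 6.74 RPKM (median 4.74) in oculomotor GFP-positive, 0.609 to 37.5 RPKM (median 4.24) in oculomotor GFP-negative, 0.913 to 61.0 RPKM (median 11.7) in spinal GFP-positive and 5.79 to 500.1 RPKM (median 21.2) in spinal GFP-negative samples. All 4 ranges overlapped, and the value of 500.1 RPKM belonged to spinal GFP-negative sample 3, which also had the highest Notch1 of all samples at 39.4 RPKM. Between fractions the log2 differences were -0.37 (SE 0.94) in oculomotor and -1.43 (SE 0.94) in spinal cultures, and neither passed.

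Between the GFP-negative fractions Hes5 had a difference of -2.60 (SE 0.94), oculomotor minus spinal, with a limma adjusted p of 0.246. On the per-length RPKM scale, Hes1 was the more abundant of the pair in oculomotor GFP-negative samples, with medians of 102 and 4.24 RPKM, and the medians lay closer in spinal GFP-positive samples, at 13.8 and 11.7 RPKM.

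Ordered by the mean of log2(RPKM + 1), the genes fell into a few arrangements. Neurod1, Neurod4 and Dll3 were highest in oculomotor GFP-positive, then spinal GFP-positive, then spinal GFP-negative and lowest in oculomotor GFP-negative samples. Neurog1, Neurog2 and Dll1 were highest in the spinal groups, with the GFP-positive group first, and lowest in oculomotor GFP-negative samples. Notch1 and Hes5 were also highest in the spinal groups, with the GFP-negative group first, and Hes1 was highest in the GFP-negative groups of both cultures. Of the 27 neighboring steps in these orders, ranges did not overlap in 1, that of Neurod1 between spinal and oculomotor GFP-negative samples.

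Several marker lists moved with the oculomotor sort as well. In oculomotor samples the 12 motor neuron markers (among them Isl1, Isl2 and Chat) summed to 637 to 1120 RPKM in GFP-positive and 13.0 to 51.2 RPKM in GFP-negative samples, with Chat, the enzyme that makes acetylcholine, listed at 0 in all of the latter. The 8 stem cell markers summed to 0.315 to 262 and to 693 to 9900 RPKM, and the 12 markers of cycling cells to 109 to 648 and 342 to 1030 RPKM, respectively. Pou5f1 reached 49.1 RPKM and Nanog 85.4 RPKM in the oculomotor GFP-negative samples, whose stem cell sums rest mostly on other genes of the list. The 12 neural progenitor markers overlapped, at 280 to 799 RPKM (median 495) in GFP-positive and 300 to 477 RPKM (median 398) in GFP-negative samples. Sox2, a transcription factor of progenitor and stem cells, was lower in oculomotor GFP-positive samples by a log2 difference of -2.97 (limma adjusted p = 0.00105), and Mki67, a proliferation marker, had a difference of -1.70 (limma adjusted p = 0.0831, and 0.00682 with the pairs kept). In spinal samples the stem cell markers summed to 14.4 to 12400 RPKM (median 928) in GFP-positive and 74.7 to 5870 RPKM (median 236) in GFP-negative samples, the opposite order of medians to the oculomotor sort, and those of cycling cells to 109 to 847 and 344 to 946 RPKM. Without pair 4 the GFP-negative samples reached 395 RPKM of the stem cell markers and the GFP-positive ones still 12400 RPKM. In those GFP-positive samples Pou5f1 reached 2.22 RPKM and Nanog 40.5 RPKM. The sum of 12400 RPKM thus rests mostly on other genes of the list. The part of the cells behind these markers in the levels of the 9 genes was not tested.

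The other genes of the pathway were examined as lists. Of the 6 other Notch receptors and ligands, 1 was higher in the oculomotor GFP-positive fraction, where 3.81% of all genes were, namely Dll4, a ligand best known from blood vessels and also made by newborn neurons, at a log2 difference of 1.31 (limma adjusted p = 0.0227). None of the 6 was called between the spinal fractions or between cultures. With same-numbered fractions kept as pairs 4 of the 6 were called in the oculomotor sort, in a fit that called 16.4% of all genes. Jag1 (1.09, limma adjusted p = 0.0258) and Jag2 joined Dll4 as higher, and Notch2 was lower (-2.07, limma adjusted p = 0.0107). Without the pairing Notch2, Notch3 and Jag1 were called in none of the 5 comparisons, and neither was Rbpj, the DNA-binding partner of Notch, whose fitted differences lay between -0.30 and 0.34.

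Among 23 genes of Notch processing, trafficking and glycosylation, 2 were higher in oculomotor GFP-positive samples and none was lower, where 3.81% of all genes were higher and 2.34% lower, so that the list's share called, 8.7%, lay near the 6.15% of all genes. These were Mfng, encoding a glycosyltransferase that modifies Notch receptors, at 2.96 (limma adjusted p = 0.0123), and Dlk1, a Delta-like protein without the domain that activates Notch, at 3.17 (limma adjusted p = 0.000588). Mfng was 10.3 to 71.0 RPKM in oculomotor GFP-positive and 1.48 to 8.62 RPKM in GFP-negative samples, without overlap. With the pairs kept, 7 of the 23 were called in the oculomotor sort, all higher, where 16.4% of all genes were called. No gene of this list was called in the other comparisons.

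Of 20 other genes listed as nuclear effectors or targets of Notch, 2 were called in the oculomotor sort, beside 6.15% of all genes. Id2 was higher (1.40, limma adjusted p = 0.0474) and Id3 lower (-2.33, limma adjusted p = 0.0247) in GFP-positive than GFP-negative samples. Both encode proteins that bind bHLH factors and keep them from DNA, and neither was tested here as a target of Notch. Sox9, a factor of neural progenitors and glia, was lower in oculomotor than spinal samples in both fractions, at -2.23 in GFP-positive (limma adjusted p = 0.0420) and -2.37 in GFP-negative samples (limma adjusted p = 0.0328). These calls lay near the threshold: over 12 refits that left out 1 sample each, no gene of the list was called in 11 between GFP-positive and in 6 between GFP-negative fractions, and fewer than 2 were called in 11 of 12 in the oculomotor sort. With the pairs kept 6 of the 20 were called in the oculomotor sort (4 higher, 2 lower) and 1, lower, in the spinal sort, beside 16.4% and 2.93% of all genes. Hes6, a Hes family member found in differentiating neurons, was 13.2 to 169 RPKM in oculomotor GFP-positive and 6.60 to 27.1 RPKM in GFP-negative samples, and its difference of 1.69 did not pass (limma adjusted p = 0.177) unless the pairs were kept (limma adjusted p = 0.0283).

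Among the 15 other neural bHLH genes tested, 3 were higher in the oculomotor GFP-positive fraction, where 3.81% of all genes were: Nhlh2 (4.40, limma adjusted p = 8.68e-06), Nhlh1 (4.12, limma adjusted p = 0.000166) and Bhlhe22 (2.91, limma adjusted p = 0.000202). Nhlh1 and Nhlh2 mark newly formed neurons. Nhlh2 was the one gene of this list called between the spinal fractions, at 2.28 (limma adjusted p = 0.0263), and it was lower in oculomotor than spinal GFP-negative samples, at -2.35 (limma adjusted p = 0.0280). Of all genes, 1.23% and 0.96% were called in these comparisons. No gene of the list was called in 5 of 12 refits without 1 sample of the spinal sort and in 7 of 12 between the GFP-negative fractions, and 5 were called in the oculomotor sort (4 higher, 1 lower) with the pairs kept, beside 16.4% of all genes. Olig2, the factor of motor neuron progenitors, was 1.53 to 45.2 RPKM in spinal and 0.238 to 5.46 RPKM in oculomotor GFP-positive samples, with a difference of -2.38 that did not pass (limma adjusted p = 0.240).

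The last list held 21 neuronal differentiation genes. In the oculomotor sort 18 were higher and none was lower, where 3.81% and 2.34% of all genes were, and the median difference was 3.36. The largest were Tubb3 (neuronal tubulin, 6.16, limma adjusted p = 2.62e-06), Ebf1 (5.40, limma adjusted p = 4.24e-08), St18 (5.03, limma adjusted p = 1.33e-08) and Elavl4 (4.97, limma adjusted p = 4.17e-08). In the spinal sort, where 1.23% of all genes were called, 5 were higher and none lower, with a median of 1.46, led by Stmn2 at 2.94, Tubb3 at 2.77, Dcx at 2.44 and St18 at 2.20. This count was 12 without the spinal GFP-positive sample 4 and 10 without pair 4, where 2.88% and 2.9% of all genes were called. It was 11 with same-numbered fractions kept as pairs, in a fit that called 2.93% of all genes. With the pairs kept and pair 4 left out it was 16, where 5.67% of all genes were called, and it was 3 without any one of spinal GFP-positive samples 1, 3 and 6 and GFP-negative samples 1, 2 and 3. It was 0 in replicates 1 to 4 alone. The interaction was called for 4 of the 21, Ebf1 (4.24), Insm1 (2.94), St18 (2.83) and Elavl4 (2.83), and for 5 without pair 4 and 7 with the pairs kept. Of all genes, 0.32%, 1.04% and 2.04% were called in these fits. Between the GFP-positive fractions, where 0.603% of all genes were called, Ebf1 alone of this list was, at 3.35 (limma adjusted p = 0.0117).

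**Figure D4:**
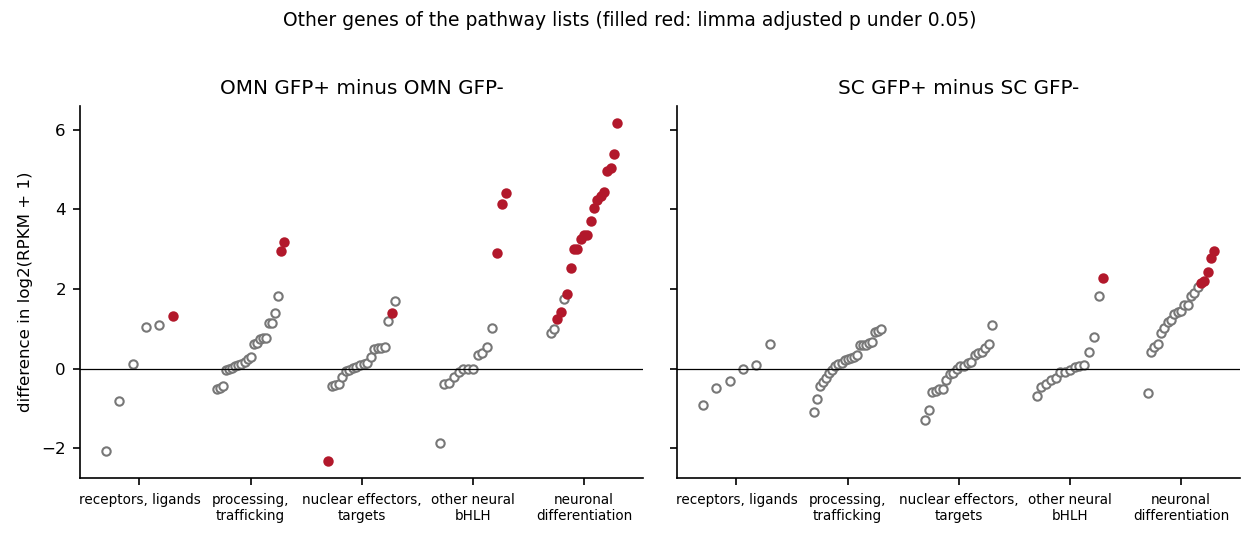
Differences of the genes of the 5 pathway lists in log2(RPKM + 1) between fractions, GFP-positive minus GFP-negative, in oculomotor (OMN) and spinal (SC) cultures, in order within each list. Red filled points passed the threshold: 18 of 21 neuronal differentiation genes in the oculomotor sort and 5 of 21 in the spinal sort, beside 6.15% and 1.23% of all genes.

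Across all 24 samples the 9 genes fell into partly separate sets. The Pearson correlation of log2(RPKM + 1) was 0.93 between Neurod1 and Dll3 and 0.91 between Neurod1 and Neurod4, it was 0.85 between Neurog1 and Neurog2, 0.81 between Neurog2 and Dll1, and 0.82 between Notch1 and Hes5. Notch1 was also at 0.82 to Neurog1, 0.72 to Neurog2 and 0.70 to Dll1, so the neurogenins and Notch1 were not separate. Hes1 went against the first set, with -0.76 to Neurod1 and -0.64 to Dll3, and was nearly flat with Notch1 at -0.10. These values describe samples that share groups, cultures and replicate sets, and they carry no test. Neurog2 and Dll1 were each highest of their group in sample 2 of both spinal groups. Their correlation without those samples was not computed.

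**Figure D5:**
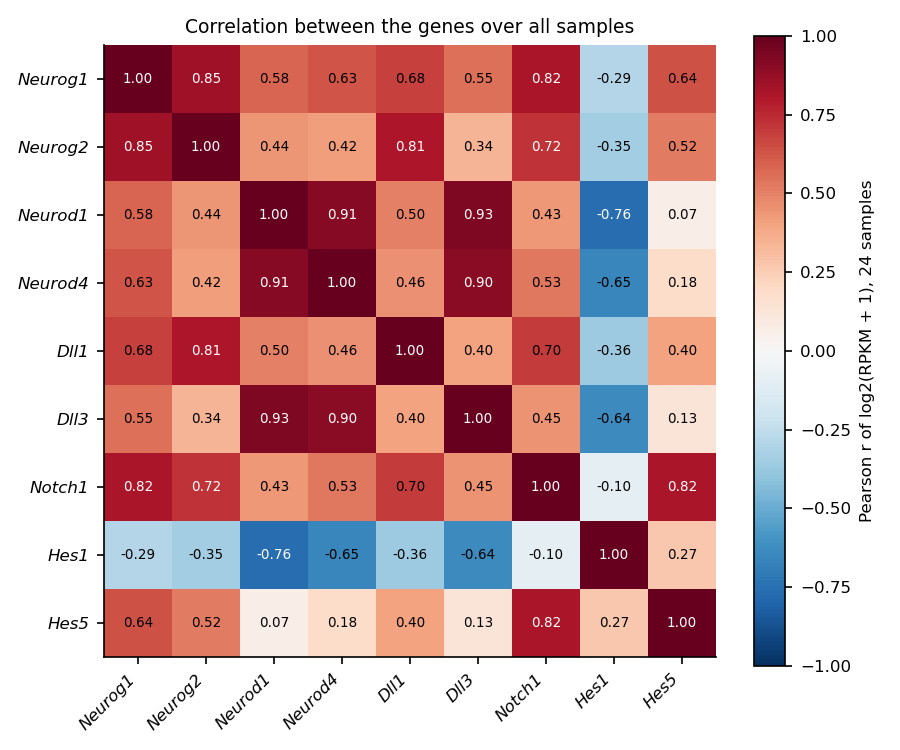
Pearson correlation of log2(RPKM + 1) between each pair of the 9 genes over 24 samples, from blue (negative) to red (positive). Neurod1, Neurod4 and Dll3 correlate at 0.898 or more with each other, and Hes1 is negative with 7 of the other 8 genes.

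The genes with the closest patterns to each of the 9, members of the set included, were taken from 11951 compared over 24 samples. The genes closest to Neurod1 included Nhlh2 (0.932) and Dll3, and Dll3 was closest to Nhlh1 (0.964), Epb41 (0.944) and Nfasc (0.935). Neurod4 was closest to Neurod1, Nhlh1 (0.907) and Rgs16 (0.902). Neurog2 was closest to Prdm8 (0.910), Hoxd3 (0.863) and Stk32a (0.858), and Neurog1 to Neurog2, Nxn (0.846) and Gbx1 (0.838). For Dll1 the closest were Ikzf5 (0.905), Usp25 (0.830) and Srsf11 (0.825), and for Notch1 they were Celsr2 (0.923), Atp11a (0.917) and Phf2 (0.889). Hes1 was closest to Adi1 (0.850), Sft2d2 (0.837) and Rbbp7 (0.820), and Hes5 to Metrn (0.889), Gm42692 (0.883) and Stox2 (0.879).

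Levels of several members also differed between the replicate sets, which differed in depth. Besides Notch1, replicates 5 and 6 lay below replicates 1 to 4 in 3 of 4 groups for Neurog1 and Neurod4 and in 2 of 4 for Neurog2, Neurod1 and Dll3. No member lay above in any group. The share of all genes split this way was not counted, so the split cannot be called particular to these genes. Because each set held the same number of samples from each group, the differences within a set can be read on their own: in replicates 1 to 4 alone Neurod1, Neurod4 and Dll3 passed in the oculomotor sort, at 4.38, 4.51 and 4.08, and so they did in replicates 5 and 6 alone, at 3.34, 3.22 and 2.38, along with Hes1, with the fit assuming a shared spread. The sequencer of each sample is not given in the sources used here, and whether a change of instrument or culture lies behind the sets was not tested.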

How the data were processed

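RNA was sequenced from 24 samples of mESC-derived cells, 6 in each of 4 sorted groups. The authors mapped the reads to mm10 (the GRCm38 assembly) and obtained RPKM, which scale read numbers by gene length and by the mapped reads of a sample, with rpkmforgenes. The submitters' processing notes list HISAT2 2.0.3 and DESeq2 1.12.4. The deposited table holds these RPKM values and no counts, and the gene annotation is not given in the sources used here.

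Values were analyzed as log2(RPKM + 1), a scale that compresses the changes of genes around 1 RPKM or lower. Genes detected (above 0 RPKM) in 2 or more fitted samples were tested with limma 3.58.1 (lmFit, eBayes with trend) in R 4.3.3, with Benjamini-Hochberg adjustment over all genes tested and a threshold of 0.05. The 12 GFP-positive samples were fitted alone to compare cultures in that fraction, and all 24 samples were fitted as 4 groups for the rest. Levels were summarized and figures drawn with Python 3.11.15, numpy 2.4.6, pandas 2.3.3 and matplotlib 3.10.9. The fits were tested on simulated data.

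Depth was estimated from the steps between low RPKM values, 95.8% to 97.8% of which in each sample came within 2.0% of whole reads. Libraries had no molecular identifiers, so read numbers cover counting error only. Fractions with the same number deviated together from their group means (correlation over 11952 genes 0.38 to 0.73 in oculomotor and 0.42 to 0.66 in spinal cultures). Within a culture each GFP-positive sample correlated best with its own number, except spinal sample 6, which did so with 5. In replicates 5 and 6 same-numbered samples of different cultures also correlated, at 0.57 to 0.71. There the correlation cannot tell a pair from a shared replicate set. Same-numbered fractions were taken as pairs, for which a replicate block was one alternative. Other alternatives were the offset, the filter on low values, rescaling by median ratios, sample weights, the replicate sets and leaving out libraries.

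The 9 genes, the pathway lists and the marker lists were chosen with earlier results of these data known. Other genes are named where they passed the test in their list (at most 4 per list and comparison, by size of the difference), as key pathway or identity genes (Hes6, Rbpj, Notch2, Notch3, Jag1, Olig2, Isl1, Mnx1, Phox2a, Sox2 and Mki67), or as the 3 genes closest to a member in pattern. A few genes under these rules are not reported here. Positions are from GENCODE M21 and promoter sequences from RefSeq (GRCm38.p6).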

Additional observations from a re-analysis of the deposited data

Results flagged for a closer look

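In each of 36 sets of 6 samples (9 genes in 4 groups) the highest and the lowest sample were compared with the rest on the log2(RPKM + 1) scale, and 2 values lay farther out than Dixon's 95% limit, which chance passes in about 1 of 20 sets. Both belonged to 1 sample, oculomotor GFP-negative 4, in which Neurog1 was 0.894 RPKM, beside 0.194 RPKM in the next highest sample, and Dll3 was 6.76 RPKM, beside 1.56 RPKM. The Neurog1 value rests on about 2 reads. The same sample had the highest Hes5 of its group, at 37.5 RPKM, the highest sum of motor neuron markers, at 51.2 RPKM, and the lowest sum of stem cell markers, at 693 RPKM. Without it the oculomotor difference of Dll3 still passed. On the RPKM scale itself, examined after seeing the data, 8 values passed the limit: these 2, Hes5 in the same sample, Hes5 (500.1 RPKM, next 55.7 RPKM) and Notch1 in spinal GFP-negative sample 3, Dll1 in sample 2 of both spinal groups (71.3 RPKM, next 15.6 RPKM, in the GFP-positive one) and Dll3 in spinal GFP-negative sample 4.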

How the results depend on the processing

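The number of the 9 genes called stayed within 1.5 times the main count except in these cases. Between GFP-positive fractions it went from 0 to 1 with an offset of 0.1 RPKM (Neurog2). Between GFP-negative fractions it went from 0 to 1 with a replicate block by number (Hes5, -2.60, limma adjusted p = 0.0423) and to 2 in replicates 1 to 4 alone. Between spinal fractions it went from 0 to 1 in replicates 5 and 6 alone (Neurog2, 1.18), without spinal pair 4 (Hes1), and without that pair and spinal GFP-negative sample 2, in which 3 predicted genes held most of the RPKM (Hes1, -2.82), choices made after seeing the data, and over single left-out samples it was 0 to 1. With pair 4 left out and the other pairs kept it was 2 (Neurod1 and Hes1). For the interaction it was 1 with either replicate block and with the pairs kept without pair 4 (Neurod4). The 4 calls of the oculomotor sort were kept in all but 1 alternative (Hes1, replicates 1 to 4 alone), and Neurog1 joined them when the 12 oculomotor samples were fitted alone (1.03). The pairing changed no other call of the 9 genes. Across cultures, same-numbered samples correlated between -0.17 and 0.71 and share only a number.

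Of 1206 refits of single genes 35 changed direction, none of them a called difference. In the comparison of GFP-positive fractions these were Hes1 with an offset of 0.1 RPKM (0.033), in replicates 1 to 4 (0.68), without pair 4 (0.37) and without single samples (-0.62 to 0.37), and Neurog1 in replicates 5 and 6 (0.42). Between GFP-negative fractions they were Neurog1 (0.15) and Neurog2 (0.49) in replicates 5 and 6. In the oculomotor sort they were Notch1 with sample weights (-0.026) and in replicates 5 and 6 (-0.57), Neurog2 (-0.49) and Dll1 (-0.34) in replicates 5 and 6, and Hes5 without single samples (-0.73 to 0.19). In the spinal sort they were Neurog1 after rescaling (-0.027) and with sample weights (-0.49), Dll1 with sample weights (-0.089) and in replicates 5 and 6 (-0.58), and, without single samples, Neurog1 (-0.41 to 0.47), Dll1 (-0.46 to 0.41) and Notch1 (-0.71 to 0.044). For the interaction they were Neurog2 (0.042) and Hes1 (0.23) in replicates 1 to 4, Notch1 in replicates 5 and 6 (-0.083), Dll1 (-0.15) and Hes1 (0.16) without pair 4 and spinal GFP-negative sample 2, and Dll1 without single samples (-0.069 to 0.81). The cause was not tested. A count-based test was not run, since the table holds RPKM. At 1 read the level of Neurog2 was 0.0585 to 0.597 RPKM, so levels below that were not detectable.

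The counts of called genes in the 5 pathway lists, recomputed after seeing the data, moved by over 1.5 times, or to or from 0, in 72 of 310 refits other than those without single samples. Beside the paired values given above, 1 gene of Notch processing (higher) was called for the interaction with the pairs kept, and with pair 4 also left out 1 effector was called for the interaction and 16 neuronal differentiation genes and 2 bHLH factors in the spinal sort. For the neuronal differentiation genes, which number 18 in the oculomotor sort, the range was 13 to 21 under those settings and 16 to 18 without single samples. In the spinal sort (5) it was 0 to 16, with 0 when the 12 spinal samples were fitted alone, 11 with the pairs kept, 2 in replicates 5 and 6 and without GFP-negative samples 2 and 4, 10 without pair 4 and 8 without pair 4 and GFP-negative sample 2, and 3 to 12 without single samples. For the interaction (4) it was 0 in replicates 1 to 4 to 7 with the pairs, and 2 to 5 without single samples. Between GFP-negative fractions (0) it was 0 to 4, all lower, and 0 to 1 without single samples, and between GFP-positive fractions (1) it was 0 to 3 and 1 to 2. The other lists, with at most 3 calls, ranged in the oculomotor sort from 0 to 4 (receptors and ligands), 2 to 7 (processing), 0 to 6 (effectors and targets) and 2 to 5 (bHLH factors), and from 0 to 2 in the other comparisons.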

Other observations

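Other Notch pathway genes divided by replicate set in the direction opposite to Notch1. Jag1, a Notch ligand, lay higher in both of replicates 5 and 6 than in all of replicates 1 to 4 in 4 of 4 groups, for example at 100.5 and 147 RPKM against 7.18 to 21.9 RPKM in oculomotor GFP-positive samples. Notch2 did so in 3 of 4 groups, at 272 and 276 RPKM against 14.7 to 61.1 RPKM in oculomotor GFP-negative samples. Adam10, the protease that makes the first activating cut in Notch, did so in 4 of 4 groups and was chosen after its values were seen. Notch3, in contrast, lay below in 4 of 4 groups, as Notch1 did. These splits were not counted over all genes and cannot be called particular to the pathway.

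Markers of further cell types were unevenly spread. Ventral interneuron markers summed to 41.7 RPKM or less in every sample, and markers of neural crest and glia to 22.0 RPKM or less. Endoderm markers reached 279 RPKM in spinal GFP-negative samples and 9.41 RPKM in spinal GFP-positive samples, floor plate markers reached 304 RPKM and 161 RPKM, and markers of mesoderm, blood and endothelium reached 36.0 RPKM and 14.1 RPKM, respectively. In spinal GFP-negative sample 6 the endoderm markers, at 279 RPKM, exceeded the motor neuron markers, at 21.4 RPKM, and floor plate markers reached 186 RPKM in oculomotor GFP-negative samples.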
